A study of Medicago truncatula and Hordeum vulgare with 90 samples.

Results

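SUNN (Medtr4g070970), CRA2 (Medtr3g110840) and CRE1 (Medtr8g106150) are receptor genes of Medicago truncatula that act in the control of nodule number, the signalling of nitrogen demand and nodule formation. They were chosen by identifier and not by a rule on their measured levels, though with earlier results of these data known. They are 3 of the 50894 gene identifiers in the count tables. Their identifiers place them on chromosomes 4, 3 and 8 of the Mt4.0v1 assembly. All 3 passed the filter on low counts in both sets of libraries described here, with 662 to 5231 reads per seedling library and 772 to 1749 per hairy-root library.

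SUNN is a leucine-rich repeat receptor kinase related to Arabidopsis CLAVATA1. It acts in the shoot to perceive CLE peptides made by nodulating or nitrate-fed roots and limits further nodulation, a feedback known as autoregulation of nodulation. CRA2 is a leucine-rich repeat receptor kinase for CEP peptides, which are made by nitrogen-starved roots. It promotes nodulation from the shoot and also restrains lateral root formation. CRE1 is a histidine kinase that perceives cytokinin in the root and is needed for the cortical cell divisions that build a nodule. The measurements given here are of transcripts in roots, and shoots were not analysed here.

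Whole roots were taken for RNA from seedlings that had spent 15 days on modified BNM plates with phosphate and nitrate both supplied (+P+N), nitrate left out (+P-N), phosphate left out (-P+N) or both left out (-P-N). The genotypes were the wild type A17 and the nsp1-1 and nsp2-2 mutants in the A17 background, here called nsp1 and nsp2, which lack functional NSP1 or NSP2, GRAS-domain transcriptional regulators needed for nodulation. Each of the 12 groups had 3 libraries. A further set of 12 libraries came from hairy roots of A17, the transgenic roots induced by Agrobacterium rhizogenes, selected by a RUBY reporter and kept in sand with both nutrients (+P+N) for 21 days. They carried an empty vector (EV), NSP1 with 3xFLAG behind the LjUBI promoter (NSP1ox), NSP2 with 3xMyc behind the BdEF1a promoter (NSP2ox), or the same NSP2 construct made resistant to miR171h (miRR-NSP2ox), with 3 libraries each. Only the roots of these plants were transformed, and how many plants or transformation events went into a library is not given in the sources used here. The deposited text describes no inoculation of the roots sequenced.

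Totals were 16194286 to 25030726 counts per seedling library and 18251230 to 25919307 per hairy-root library. Levels are given as CPM, counts scaled to library size and corrected by TMM, a factor for each library under the assumption that the bulk of genes did not change. CPM is not corrected for gene length, so levels were not compared between the 3 genes. The TMM factors moved with nitrate: they were 0.906 to 0.944 in the 9 libraries at +P+N and 0.945 to 0.975 at -P+N, but 1.04 to 1.07 at +P-N and 1.05 to 1.07 at -P-N. On library totals alone, without this factor, the median log2 fold change of all genes in comparisons across nitrate was 0.124 to 0.243, and where that scale changed the call of a receptor its value stands beside the result. Replicate libraries differed by more than counting noise, with a chi-square per gene of 2.04 to 11.7 over the 36 pairs of seedling replicates and 4.15 to 85.9 over the 12 pairs in hairy roots. EV replicate 1 stood apart from its group, with a chi-square per gene of 85.9 and 57.1 against the other EV libraries, which gave 9.98 between them, and a TMM factor of 0.903 against 1.03 and 1. NSP2ox replicate 1 gave 27.5 and 26.5 against its group, where the other pair gave 4.23. The labels do not say whether replicates came from separate cultures or plants, so p-values measure the spread between these libraries. In whole roots, fewer cells of a type and less RNA per cell cannot be told apart.

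Across the 12 seedling groups, mean SUNN varied 1.61-fold, from 39.4 CPM in nsp1 at -P+N to 63.5 in A17 at +P+N. Mean CRA2 varied 1.83-fold, from 136 CPM in nsp1 at -P-N to 249 in nsp2 at +P+N. CRE1 varied least, 1.36-fold, from 82.8 CPM in nsp2 at -P-N to 113 in nsp1 at +P+N. The coefficient of variation between replicates had a median of 6.66% for SUNN, 5.58% for CRA2 and 7.04% for CRE1, against 2.87% to 3.75%, 1.45% to 1.86% and 2.03% to 2.57% from counting alone. When groups were ordered by their means, the ranges of most neighbours overlapped, in 10 of 11 neighbouring pairs for SUNN, 9 of 11 for CRA2 and 10 of 11 for CRE1. SUNN split into a high block of 4 groups, the 3 genotypes at +P+N and nsp2 at +P-N, whose lowest library held 55.1 CPM, and a low block of 8 groups, whose highest library held 52.4. In CRA2 the 4 highest means were those of the 3 genotypes at +P+N and of A17 at -P+N, and no library of these groups overlapped any of the other 8. The mean of nsp2 at -P+N came next, and the low end held the 6 groups without nitrate and nsp1 at -P+N. In CRE1 the 7 highest means were those at +P+N and +P-N plus A17 at -P+N, and the neighbours without overlap were A17 at +P+N and nsp2 at -P+N.

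**Figure D1:**
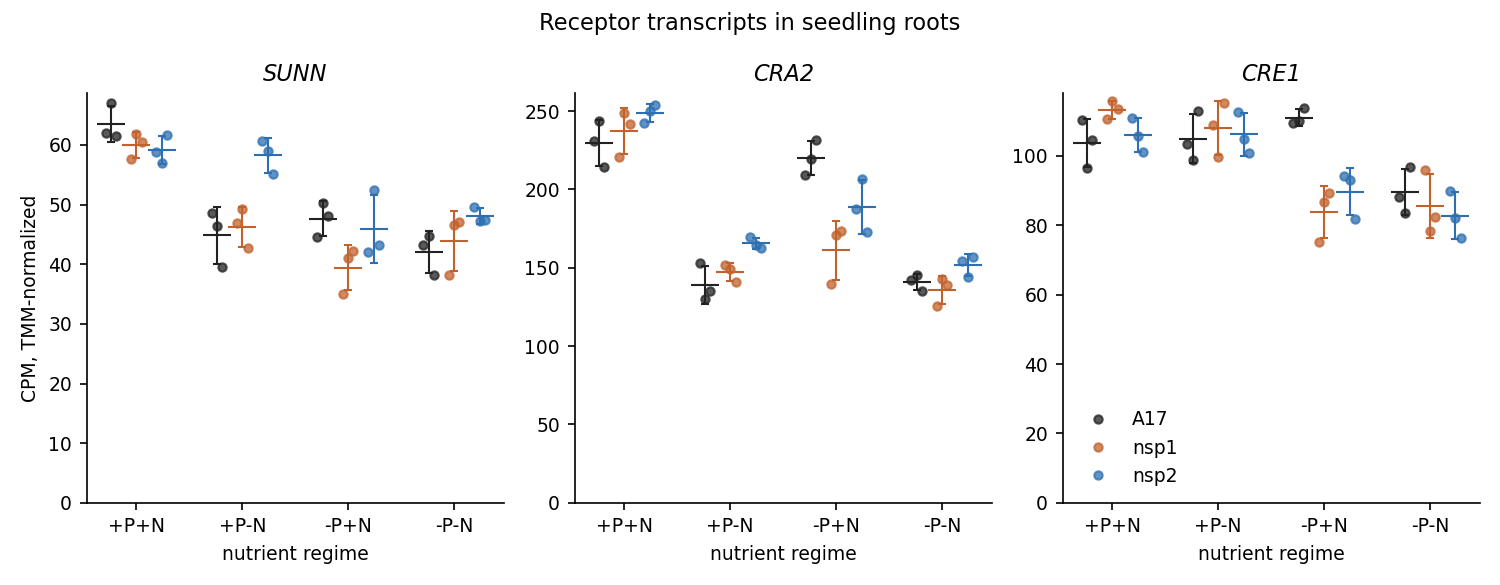
Levels of SUNN, CRA2 and CRE1 in seedling roots, as TMM-normalized CPM on an axis from 0, by nutrient regime and genotype. Points are single libraries, dashes are means of 3 and bars are SD. CRA2 is lowest without nitrate in every genotype, and all 3 genes are lower in nsp1 than in A17 at -P+N.

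The first comparison asked how each starvation changed the receptors in wild-type roots. Without nitrate, SUNN and CRA2 transcripts fell in A17, by factors of 0.696 and 0.598, and CRE1 did not pass the test. Without phosphate, SUNN alone was called, and without both nutrients all 3 genes were lower. A gene was called at an adjusted p under 0.05, from edgeR's quasi-likelihood test on 3 libraries against 3 with Benjamini-Hochberg adjustment over all 24630 genes tested. Calls were common among all genes: 57% were called in either direction without nitrate, 29% without phosphate and 60.4% without both, and 28.5%, 14.6% and 30% were called lower, so the 2, 1 and 3 receptors called lower are read against these shares. Over all genes, the CPM ranges of the groups did not overlap for 64.1%, 43.7% and 66.5%. The median log2 fold change over all genes was 0.0087, 0.0038 and 0.0063 in the same comparisons.

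SUNN in A17 was measured at 62.0, 67.0 and 61.4 CPM at +P+N, replicates 1 to 3. At +P-N it was 48.6, 46.4 and 39.5 CPM, all below every +P+N library. The log2 fold change was -0.52 (SE 0.0756, edgeR adjusted p = 9.35e-05). At -P+N the libraries held 44.6, 50.3 and 48.0 CPM, again below all of +P+N, with a log2 fold change of -0.40 (SE 0.0639, edgeR adjusted p = 0.000603). At -P-N they held 43.2, 44.8 and 38.1 CPM, and the log2 fold change was the largest of the 3, -0.60 (SE 0.0679, edgeR adjusted p = 1e-05). All 3 starvations thus lowered SUNN, and their ranges overlapped each other. Leaving out phosphate on top of nitrate gave a further log2 fold change of -0.08 (95% interval -0.26 to 0.10, edgeR adjusted p = 0.52), which did not pass. Leaving out nitrate on top of phosphate gave -0.19 (SE 0.0715, edgeR adjusted p = 0.0463), a call that was lost with RLE size factors (adjusted p = 0.0504), with DESeq2 (0.0792), with all groups in one fit (0.0898), on library totals alone (-0.04, adjusted p = 0.637), without replicate 2 of each group (adjusted p = 0.142) and without replicate 3 (-0.12, adjusted p = 0.242). Of all genes, 26.4% were called between -P-N and +P-N and 46.7% between -P-N and -P+N, and the groups did not overlap for 41.4% and 56%.

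CRA2 followed nitrate in A17. It was measured at 231, 244 and 214 CPM at +P+N and at 153, 130 and 135 CPM at +P-N, with no overlap. The log2 fold change was -0.74 (SE 0.069, edgeR adjusted p = 2.28e-06), and 72.3% of all genes had a smaller change in size. At -P+N the libraries held 209, 219 and 231 CPM, which overlapped +P+N although replicate 1 lay below all of it, and the log2 fold change was -0.05 (95% interval -0.18 to 0.08, edgeR adjusted p = 0.583). As a fold, the interval runs from 0.881 to 1.06. At -P-N the level was 142, 145 and 135 CPM, overlapping +P-N, with a log2 fold change of -0.72 against +P+N (SE 0.0567, edgeR adjusted p = 4.79e-07) and of 0.03 against +P-N (95% interval -0.10 to 0.16, edgeR adjusted p = 0.786). Against -P+N it was -0.65 (SE 0.0529, edgeR adjusted p = 7.64e-07).

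CRE1 in A17 was measured at 110.3, 96.4 and 104.5 CPM at +P+N. At +P-N it was 103.2, 98.9 and 112.8 CPM, with a log2 fold change of 0.00 (95% interval -0.15 to 0.14, edgeR adjusted p = 0.966), and at -P+N it was 109.4, 109.9 and 113.8 CPM, with 0.11 (95% interval -0.02 to 0.24, edgeR adjusted p = 0.195). Both ranges overlapped that of +P+N. Only the double starvation was called: CRE1 was 88.2, 83.5 and 96.6 CPM at -P-N, with a log2 fold change of -0.23 (SE 0.0662, edgeR adjusted p = 0.011). That group overlapped +P+N by its highest library, and the call was lost without -P-N replicate 2 (-0.18, adjusted p = 0.0567) and without +P+N replicate 1 (-0.18, adjusted p = 0.0647). The comparisons against the single starvations did not overlap: the log2 fold change was -0.32 against -P+N (SE 0.0586, edgeR adjusted p = 0.000696) and -0.22 against +P-N (SE 0.0643, edgeR adjusted p = 0.0268), and the latter was lost without replicate 1 (-0.22, adjusted p = 0.118) or 2 (-0.21, adjusted p = 0.0887) of both groups. On library totals alone, the median of all genes rose by 0.21 without nitrate and by 0.206 without both nutrients. CRE1 was then called higher without nitrate (log2 fold change 0.20, adjusted p = 0.0222). Without both nutrients CRE1 was not called (-0.03, adjusted p = 0.753). SUNN and CRA2 kept their calls and directions on that scale, but these changes were smaller than with TMM. Without nitrate SUNN gave -0.32 and CRA2 gave -0.54, and without both nutrients they gave -0.40 and -0.52.

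The same comparisons within the mutants asked whether these responses were kept. In nsp1 all 3 genes fell when phosphate or both nutrients were missing, and SUNN and CRA2 fell at +P-N. In nsp2, CRA2 fell in each starvation, while SUNN and CRE1 fell at -P+N and -P-N only. The shares of all genes called were 57.5%, 52.9% and 60.7% in nsp1 and 57%, 35.5% and 58.8% in nsp2 for +P-N, -P+N and -P-N in turn. Groups did not overlap for 63.5%, 60.7% and 66% of genes in nsp1 and 63.9%, 48.9% and 65.5% in nsp2.

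CRA2 in nsp1 was 221, 249 and 242 CPM at +P+N and 152, 149 and 141 CPM at +P-N. It was 140, 171 and 173 CPM at -P+N and 125, 143 and 139 CPM at -P-N, so every starved library lay below every replete one. The log2 fold changes were -0.71, -0.54 and -0.80, with edgeR adjusted p of 2.37e-08, 7.09e-05 and 1.32e-07. In nsp2 it was 243, 250 and 254 CPM at +P+N and 170, 165 and 163 CPM at +P-N. It was 187, 207 and 173 CPM at -P+N and 155, 144 and 157 CPM at -P-N, with no overlap with +P+N, and log2 fold changes of -0.62, -0.38 and -0.71 (edgeR adjusted p = 3.92e-07, 0.00215 and 1.41e-06). Loss of phosphate alone thus lowered CRA2 in both mutants, where in A17 the groups overlapped.

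SUNN in nsp1 was 57.6, 61.8 and 60.6 CPM at +P+N, 47.0, 49.3 and 42.6 at +P-N, 35.1, 41.0 and 42.1 at -P+N and 38.2, 46.6 and 47.0 at -P-N. None of the starved groups overlapped the replete one, and the log2 fold changes were -0.39, -0.59 and -0.44 (edgeR adjusted p = 5.71e-05, 2.1e-05 and 0.000227). In nsp2 SUNN overlapped its replete level without nitrate: it was 58.9, 57.0 and 61.6 CPM at +P+N and 60.7, 58.9 and 55.1 CPM at +P-N, with a log2 fold change of -0.05 (95% interval -0.18 to 0.08, edgeR adjusted p = 0.474). It was 42.0, 52.4 and 43.2 CPM at -P+N and 49.6, 47.3 and 47.4 CPM at -P-N, below all of +P+N, with log2 fold changes of -0.35 and -0.30 (edgeR adjusted p = 0.00911 and 0.00173). The call at -P+N was lost without replicate 1 (-0.30, adjusted p = 0.0804) or 3 (-0.28, adjusted p = 0.105) of both groups. On library totals alone SUNN in nsp2 was called higher at +P-N (0.18, adjusted p = 0.0159), where the median of all genes moved by 0.243, and was not called at -P-N (-0.09, adjusted p = 0.228), where it moved by 0.226.

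CRE1 in nsp1 was 110.7, 115.9 and 113.4 CPM at +P+N and 108.9, 99.6 and 115.3 CPM at +P-N, which overlapped (log2 fold change -0.09, 95% interval -0.21 to 0.03, edgeR adjusted p = 0.186). It was 75.1, 86.8 and 89.4 CPM at -P+N and 95.9, 78.4 and 82.5 CPM at -P-N, all below +P+N, with log2 fold changes of -0.42 and -0.40 (edgeR adjusted p = 0.000162 and 0.000207). In nsp2 it was 111, 105.6 and 101.1 CPM at +P+N and 112.7, 104.9 and 100.7 CPM at +P-N (log2 fold change -0.03, 95% interval -0.15 to 0.10, edgeR adjusted p = 0.722). It was 94.0, 93.0 and 81.8 CPM at -P+N and 89.8, 82.2 and 76.4 CPM at -P-N, below +P+N in every library, with log2 fold changes of -0.22 and -0.36 (edgeR adjusted p = 0.0306 and 0.00129). The former was lost without each replicate number in turn (-0.24 to -0.20, adjusted p = 0.0741 to 0.114), and both were lost on library totals alone (-0.18, adjusted p = 0.069, and -0.15, adjusted p = 0.105). CRE1 at +P-N was called higher in nsp2 on that scale (0.21, adjusted p = 0.00879).

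Within the mutants, the second starvation was also set against each single one. Leaving out phosphate where nitrate was already missing lowered CRE1 in nsp1 (log2 fold change -0.33, SE 0.079, edgeR adjusted p = 0.00771, lost without replicate 3 with -0.26, adjusted p = 0.149) and in nsp2 (-0.34, SE 0.0699, edgeR adjusted p = 0.00353), as in A17. It lowered SUNN in nsp2 (-0.26, SE 0.0616, edgeR adjusted p = 0.00853), which was lost without replicate 1 (-0.26, adjusted p = 0.0529) or 2 (-0.24, adjusted p = 0.0627). Leaving out nitrate where phosphate was already missing lowered CRA2 in nsp1 (-0.25, SE 0.0862, edgeR adjusted p = 0.0315) and nsp2 (-0.31, SE 0.0784, edgeR adjusted p = 0.00771), and both calls were lost on library totals alone (-0.12, adjusted p = 0.286, and -0.17, adjusted p = 0.109). Without replicate 2 (-0.25, adjusted p = 0.0712) or 3 (-0.21, adjusted p = 0.211) CRA2 was not called in nsp1, and without replicate 2 (-0.21, adjusted p = 0.0778) it was not called in nsp2. The other receptors did not pass in these 4 comparisons, though SUNN in nsp1 was called higher at -P-N than with phosphate alone left out on library totals (0.29, adjusted p = 0.0286). The first pair of comparisons called 28.4% and 28.8% of all genes in nsp1 and nsp2, with no overlap for 42.6% and 44.3%, and the second called 46.4% and 42%, with no overlap for 56% and 52.9%.

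**Figure D2:**
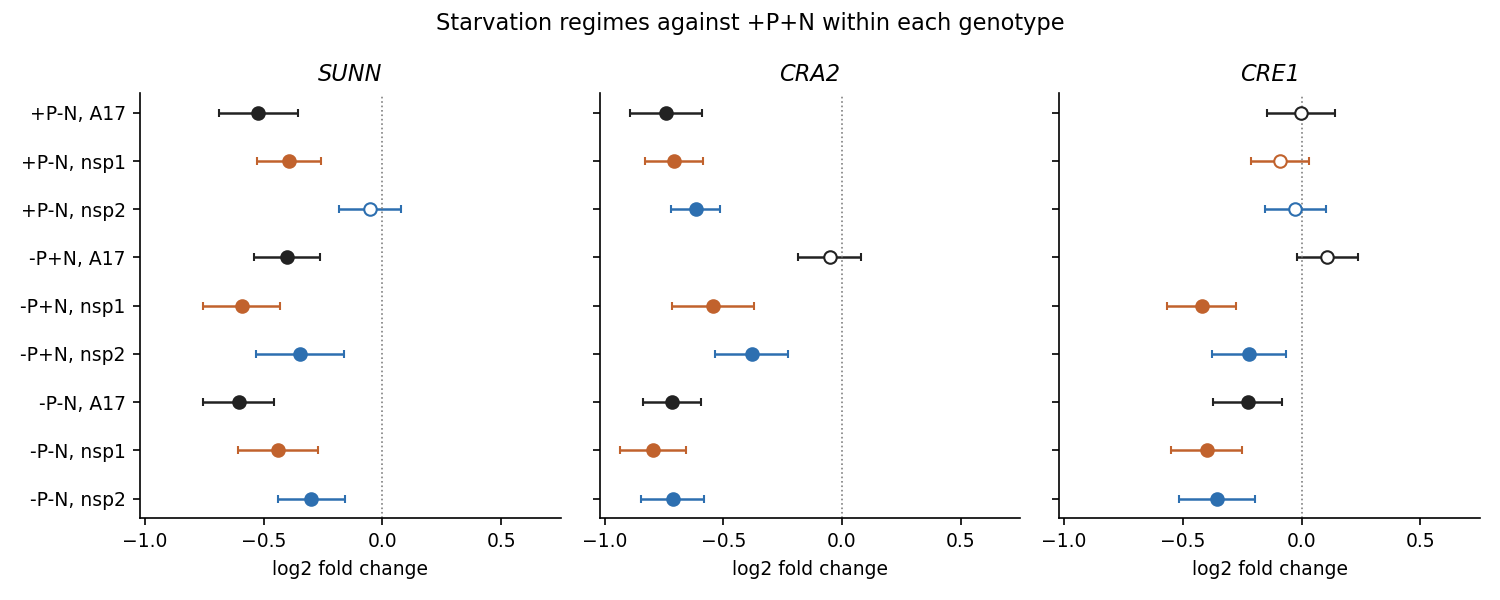
Log2 fold change of each receptor in the 3 starvation regimes against +P+N, within A17, nsp1 and nsp2, from edgeR's quasi-likelihood test on 3 libraries against 3. Bars are 95% intervals, filled points passed an adjusted p of 0.05 and open points did not. The interval of CRA2 lies left of 0 in every comparison except A17 at -P+N, where it spans 0, and that of CRE1 at +P-N spans 0 in each genotype.

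The next comparison set each mutant against A17 within a regime, to ask whether NSP1 or NSP2 affects the level of the receptors. None of the 3 genes was called in either mutant in the replete regime or under double starvation. At +P+N, CRE1 in nsp1 lay above all A17 libraries by a narrow margin (log2 fold change 0.12, edgeR adjusted p = 0.229). SUNN in nsp2 was -0.12 there (edgeR adjusted p = 0.287). Such differences at +P+N are part of the interactions of genotype and regime given further on. The calls lay at -P+N, where all 3 receptors were lower in nsp1 and CRA2 and CRE1 were lower in nsp2, and at +P-N, where SUNN and CRA2 were higher in nsp2. The share of all genes called followed the same order: nsp1 against A17 gave 6.35% in replete roots, 4.45% without nitrate, 32.6% without phosphate and 2.4% without both, and nsp2 against A17 gave 4.52%, 11.4%, 27.8% and 5.58%. At -P+N the genes called lower were 17.3% in nsp1 and 15.1% in nsp2, and at +P-N those called higher in nsp2 were 5.12%. The ranges of mutant and A17 did not overlap for 26.2%, 21.4%, 46.5% and 19.8% of genes in nsp1 and for 26.2%, 29.9%, 43% and 25.8% in nsp2, in the order of regimes above. Within a regime both mutants were set against the same A17 libraries, so their differences from A17 are not independent.

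At -P+N in nsp1, CRE1 (75.1, 86.8 and 89.4 CPM) lay below all A17 libraries (109.4, 109.9 and 113.8), with a log2 fold change of -0.41 (SE 0.0698, edgeR adjusted p = 0.000837). CRA2 (140, 171 and 173 CPM against 209, 219 and 231) did not overlap either, with -0.46 (SE 0.08, edgeR adjusted p = 0.00106). SUNN (35.1, 41.0 and 42.1 CPM against 44.6, 50.3 and 48.0) gave -0.28 (SE 0.082, edgeR adjusted p = 0.0189). Replicate 1 of nsp1 at -P+N was the lowest of its group for all 3 genes. Without that library CRE1 kept its call (-0.35, adjusted p = 0.00105), as did CRA2 (-0.37, adjusted p = 0.000775), and SUNN lost it (-0.21, adjusted p = 0.0505). The SUNN call was also lost without A17 replicate 2 (-0.24, adjusted p = 0.0935) or 3 (-0.28, adjusted p = 0.0502). The SUNN call therefore depended on single libraries, and the calls of CRA2 and CRE1 held without any one of them.

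At -P+N in nsp2, CRE1 (94.0, 93.0 and 81.8 CPM) was below all A17 libraries, with a log2 fold change of -0.32 (SE 0.0662, edgeR adjusted p = 0.00491), and kept its call without any one library. CRA2 (187, 207 and 173 CPM) was also below all of A17, by a narrow margin, with -0.24 (SE 0.0733, edgeR adjusted p = 0.0343). That call was lost without A17 replicate 2 (-0.23, adjusted p = 0.118), A17 replicate 3 (-0.19, adjusted p = 0.13), nsp2 replicate 1 (-0.23, adjusted p = 0.062) or nsp2 replicate 3 (-0.17, adjusted p = 0.134). SUNN was not called (-0.07, 95% interval -0.27 to 0.13, edgeR adjusted p = 0.599).

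At +P-N in nsp2, SUNN (60.7, 58.9 and 55.1 CPM) was above all A17 libraries (48.6, 46.4 and 39.5), a log2 fold change of 0.37 (SE 0.0732, edgeR adjusted p = 0.00595), and the call held without any one library (0.28 to 0.43, adjusted p = 0.00314 to 0.0388). CRA2 (170, 165 and 163 CPM against 153, 130 and 135) was 0.24 higher (SE 0.0579, edgeR adjusted p = 0.0171), a call lost without A17 replicate 2 (0.19, adjusted p = 0.0573), A17 replicate 3 (0.22, adjusted p = 0.0706) or nsp2 replicate 1 (0.22, adjusted p = 0.077). CRE1 was not called (0.01, 95% interval -0.12 to 0.13, edgeR adjusted p = 0.968). In nsp1 at +P-N the log2 fold changes were 0.04 for SUNN, 0.07 for CRA2 and 0.03 for CRE1, with edgeR adjusted p of 0.867, 0.62 and 0.86. In the single starvations, CRA2 in nsp2 was thus called higher than A17 without nitrate and lower without phosphate, and both calls depended on single libraries. These differences were not tested against each other. At -P-N, SUNN in nsp2 (49.6, 47.3 and 47.4 CPM) again lay above all A17 libraries, with a log2 fold change of 0.20 (SE 0.0699) that did not pass (edgeR adjusted p = 0.137).

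**Figure D3:**
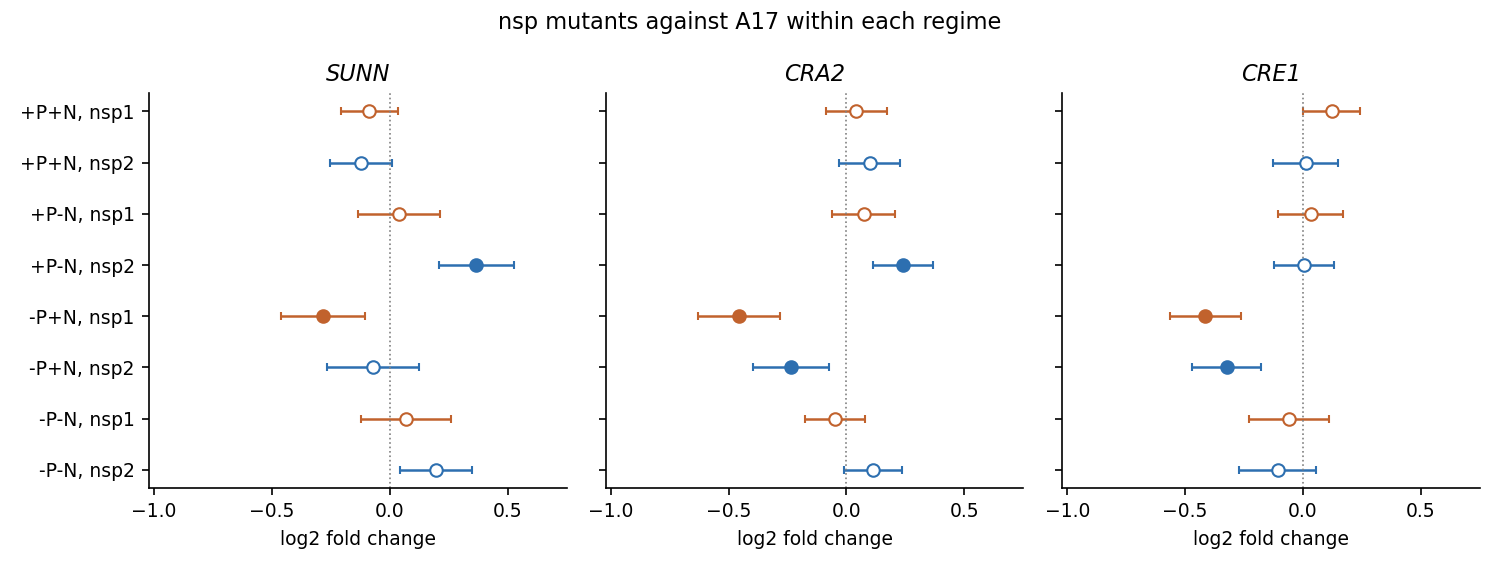
Log2 fold change of each receptor in nsp1 and nsp2 against A17 in the 4 nutrient regimes, from edgeR's quasi-likelihood test. Bars are 95% intervals, filled points passed an adjusted p of 0.05 and open points did not. The filled points are at -P+N, left of 0, and for SUNN and CRA2 in nsp2 at +P-N, right of 0.

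Interaction tests on 12 libraries, with genotype, regime and their product, asked whether a starvation response itself differed between a mutant and A17. At -P+N the log2 response of CRE1 in nsp1 minus that in A17 was -0.54 (SE 0.0899, edgeR adjusted p = 0.000228), and that of CRA2 was -0.50 (SE 0.1066, edgeR adjusted p = 0.00168), in a test that called 31% of all genes. Both held when any replicate number was left out of every group. For SUNN the same difference was -0.20, which did not pass (95% interval -0.41 to 0.01, edgeR adjusted p = 0.138). In nsp2 the same test called CRA2 (-0.34, SE 0.0957, edgeR adjusted p = 0.0244) and CRE1 (-0.34, SE 0.0914, edgeR adjusted p = 0.0191) among 15.4% of all genes. The CRE1 call was lost without each replicate number in turn (-0.40 to -0.28, adjusted p = 0.0602 to 0.172), and the CRA2 call without replicate 1 (-0.40, adjusted p = 0.104) or 3 (-0.17, adjusted p = 0.415).

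At +P-N the interaction called SUNN in nsp2, by 0.49 (SE 0.0999, 95% interval 0.28 to 0.70, edgeR adjusted p = 0.0153). Few genes passed this test, 2.04% of all, and 83.9% of genes had a smaller interaction. The estimate was 0.53 without replicate 1 (adjusted p = 0.151), 0.44 without replicate 2 (adjusted p = 0.115) and 0.50 without replicate 3, where it kept its call (adjusted p = 0.0329). CRA2 and CRE1 were not called in nsp2 (0.14, adjusted p = 0.539, and 0.00, adjusted p = 1), and no receptor was called in nsp1 at +P-N, in a test that called 1.36% of all genes. At -P-N no receptor's response differed by this test in nsp1 (4.68% of all genes called) or nsp2 (0.702%). The closest was SUNN in nsp2, with 0.29 (SE 0.0925, edgeR adjusted p = 0.159).

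The combination of both starvations was tested as a phosphate by nitrate interaction within each genotype, where 0 means that the log2 changes add up. In A17 the interaction of CRE1 was -0.34, a level at -P-N below the sum of its single responses (SE 0.0916, edgeR adjusted p = 0.0134), among 22.3% of all genes called. That call was lost without replicate 1 (-0.40, adjusted p = 0.0562) or 2 (-0.29, adjusted p = 0.0812). The interaction of SUNN was 0.31, just outside the threshold (SE 0.1106, edgeR adjusted p = 0.0588), and passed with DESeq2 (0.34, adjusted p = 0.0386), no filter (0.30, adjusted p = 0.0408) and RLE size factors (0.34, adjusted p = 0.0415). That of CRA2 was 0.06 (95% interval -0.13 to 0.25, edgeR adjusted p = 0.677). In nsp1, where 29.6% of genes were called, SUNN (0.54, SE 0.1213, edgeR adjusted p = 0.0026) and CRA2 (0.45, SE 0.1097, edgeR adjusted p = 0.00486) were higher at -P-N than their single responses add up to, though neither passed without replicate 3 (0.48, adjusted p = 0.0528, and 0.44, adjusted p = 0.0696). In nsp2 no receptor was called, and CRA2 came closest (0.27, SE 0.091, edgeR adjusted p = 0.0716), among 10.1% of genes. It passed with DESeq2 (0.29, adjusted p = 0.0352) and without replicate 2 (0.37, adjusted p = 0.037).

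All 36 seedling libraries were then used in one fit for the average effect of each factor. Without nitrate CRA2 had a log2 fold change of -0.53 (SE 0.03, edgeR adjusted p = 2.89e-17), averaged over genotype and phosphate. SUNN had -0.14 (SE 0.0353, edgeR adjusted p = 0.000552) and CRE1 -0.07 (SE 0.0317, edgeR adjusted p = 0.0332), among 77.2% of all genes called. The values of SUNN and CRE1 depended on the scaling: on library totals alone, where the median of all genes moved by 0.188, they were 0.02 (adjusted p = 0.614) and 0.09 (adjusted p = 0.0122). CRA2 kept its direction and its call. Without replicate 3 SUNN was no longer called (-0.09, adjusted p = 0.0698), nor was CRE1 without replicate 2 (-0.04, adjusted p = 0.425) or 3 (-0.07, adjusted p = 0.0957). Averaged over genotype and nitrate, all 3 genes were lower without phosphate, with log2 fold changes of -0.30 for SUNN (SE 0.0353, edgeR adjusted p = 4.4e-09), -0.25 for CRE1 (SE 0.0317, edgeR adjusted p = 2.56e-08) and -0.21 for CRA2 (SE 0.0299, edgeR adjusted p = 3.17e-07), among 64.7% of all genes. These averages do not describe each genotype. At -P+N against +P+N in A17, SUNN was called (-0.40), and CRA2 (-0.05) and CRE1 (0.11) were not. CRA2 was -0.54 in nsp1 and -0.38 in nsp2, and CRE1 was -0.42 and -0.22. At +P-N against +P+N, SUNN was called in A17 (-0.52) and nsp1 (-0.39) but not in nsp2 (-0.05).

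Averaged over genotypes, the phosphate by nitrate interaction was 0.31 for SUNN (SE 0.0706, edgeR adjusted p = 0.000545) and 0.26 for CRA2 (SE 0.0598, edgeR adjusted p = 0.000631), so on this average both fell less at -P-N than their single responses add up to. CRE1 had the opposite sign and did not pass (-0.12, 95% interval -0.24 to 0.01, edgeR adjusted p = 0.151), among 39.8% of all genes called, and passed on library totals alone (-0.16, adjusted p = 0.0362) and without replicate 1 (-0.19, adjusted p = 0.0497). Within A17, nsp1 and nsp2 in turn, the interaction was 0.31, 0.54 and 0.09 for SUNN. For CRA2 it was 0.06, 0.45 and 0.27, and both genes were called in nsp1 only. Averaged over regimes, no receptor was called in nsp1 (11.7% of genes called) or nsp2 (37.4%) against A17. The closest were CRE1 and SUNN in nsp2, at -0.09 (SE 0.0388, edgeR adjusted p = 0.0561) and 0.10 (SE 0.043, edgeR adjusted p = 0.0573). CRE1 in nsp2 passed on library totals alone (-0.12, adjusted p = 0.0168), with a filter in 1 library (-0.10, adjusted p = 0.0486), with no filter (-0.10, adjusted p = 0.0407) and without replicate 1 (-0.13, adjusted p = 0.022) or 2 (-0.13, adjusted p = 0.0466), and was -0.01 without replicate 3 (adjusted p = 0.858).

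The split of the variation by factor shows the same contrast between the genes as a description. Nitrate took 67.3% of the sum of squares of log2 CPM of CRA2, against 9.04% for SUNN and 4.18% for CRE1. Phosphate took the largest share for SUNN, 41.7%, and for CRE1, 46.8%, against 10.4% for CRA2. Genotype as a main effect took 8.37% for SUNN, 4.07% for CRA2 and 4.94% for CRE1. The genotype by phosphate term was the second largest for CRE1 apart from replicates, at 13.8%, and for SUNN the phosphate by nitrate and genotype by nitrate terms took 11.2% and 10.3%. Differences between replicates took 15.2%, 5.65% and 20% for SUNN, CRA2 and CRE1. On library totals alone nitrate took 54% for CRA2, 5.72% for CRE1 and 0.18% for SUNN, so the share of nitrate in SUNN did not hold on that scale, and phosphate took 43% for SUNN and 38.7% for CRE1.

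**Figure D4:**
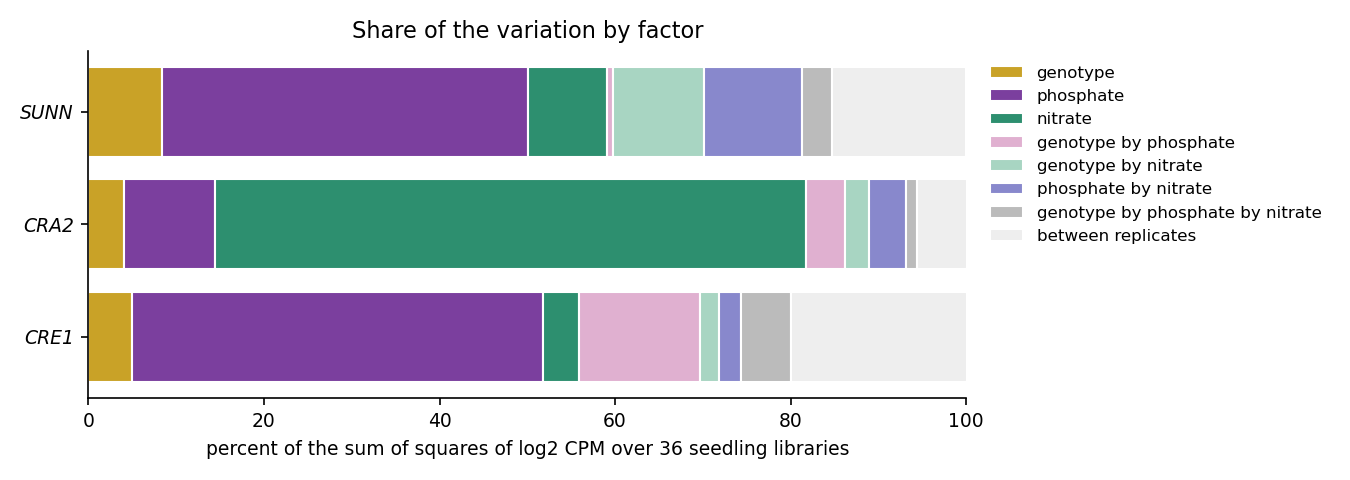
Percent of the sum of squares of log2 CPM of each receptor over the 36 seedling libraries that falls on genotype, phosphate, nitrate, their interactions and differences between replicates. Nitrate takes the longest segment for CRA2 and phosphate for SUNN and CRE1, with the genotypes pooled.

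Ratios of receptors within a library do not depend on how libraries are scaled. In A17 the log2 ratio of CRA2 to CRE1 was 1.15 ± 0.166 (SD, n = 3) at +P+N, and it differed from that by -0.74 without nitrate, -0.16 without phosphate and -0.489 without both. The ratio of SUNN to CRE1 differed by -0.524, -0.515 and -0.383 in the same regimes. The ratio of SUNN to CRA2 differed from +P+N in opposite directions, by 0.216 at +P-N and -0.355 at -P+N, and neither group overlapped +P+N. How often ratios of other genes overlap was not counted. Of 18 such comparisons, hairy roots included, 9 reached a p of 0.1 in an exact two-sided permutation test of 3 libraries against 3. That is the smallest p this test can give, so no ratio could have passed the threshold used here. The smallest value after Benjamini-Hochberg adjustment was 0.2, and the test cannot decide whether the ratios differed.

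Hairy roots asked a related question, how more NSP1 or NSP2 changes the receptors in roots given both nutrients. By the authors' methods, +P+N held less phosphate here than on the seedling plates, so the label does not stand for the same medium. The receptors were lower where they were called against EV: CRE1 fell in all 3 overexpression groups, CRA2 in NSP1ox and NSP2ox, and SUNN in NSP2ox. Of the 24004 genes tested, 11.7% were called in NSP1ox, 25.7% in NSP2ox and 30.6% in miRR-NSP2ox, with 5.16%, 11.5% and 14.7% called lower. The ranges of these groups and EV did not overlap for 31.3%, 40.9% and 45% of genes. These groups share the EV libraries, and the sizes of the 3 effects of a gene are therefore not independent. Without EV replicate 1, the library that stood apart, SUNN in NSP2ox was -0.44 (edgeR adjusted p = 0.00175) and CRA2 was -0.35 in NSP1ox (adjusted p = 0.0268) and -0.25 in NSP2ox (adjusted p = 0.0332). CRE1 was -0.42 in NSP2ox (adjusted p = 0.00175) and -0.33 in miRR-NSP2ox (adjusted p = 0.00602), and CRE1 in NSP1ox was the call lost (-0.24, adjusted p = 0.0889).

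CRE1 in EV was 82.5, 77.3 and 85.7 CPM. It was 61.4, 62.1 and 58.9 CPM in NSP2ox, 68.6, 63.9 and 62.9 in miRR-NSP2ox and 68.0, 71.6 and 67.5 in NSP1ox, and each of these 9 libraries lay below every EV library. The log2 fold changes were -0.43 in NSP2ox (SE 0.0686, edgeR adjusted p = 0.000684), -0.34 in miRR-NSP2ox (SE 0.0688, edgeR adjusted p = 0.00313) and -0.25 in NSP1ox (SE 0.0675, edgeR adjusted p = 0.0371). The first 2 kept their call without any one library. The NSP1ox call was lost without EV replicate 1 (-0.24, adjusted p = 0.0889) or 3 (-0.21, adjusted p = 0.169) and without NSP1ox replicate 1 (-0.24, adjusted p = 0.0517), 2 (-0.28, adjusted p = 0.0604) or 3 (-0.23, adjusted p = 0.141).

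CRA2 in EV was 75.2, 79.1 and 73.7 CPM. It was 56.6, 64.2 and 59.9 CPM in NSP1ox and 62.7, 64.9 and 64.4 in NSP2ox, with no overlap, and log2 fold changes of -0.34 (SE 0.0708, edgeR adjusted p = 0.0108) and -0.25 (SE 0.0659, edgeR adjusted p = 0.0163). Without replicate 3 of the overexpression group, the first was not called (-0.34, adjusted p = 0.0525), nor was the second (-0.25, adjusted p = 0.0536). In miRR-NSP2ox it was 79.3, 70.0 and 69.9 CPM, which overlapped EV (-0.06, 95% interval -0.22 to 0.09, edgeR adjusted p = 0.535).

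SUNN in EV was 45.1, 55.2 and 50.6 CPM and in NSP2ox 37.7, 40.1 and 38.6 CPM, all below EV, a log2 fold change of -0.38 (SE 0.0836, edgeR adjusted p = 0.00586). In NSP1ox (38.9, 49.5 and 45.5 CPM) and miRR-NSP2ox (44.3, 46.3 and 48.5 CPM) it overlapped EV, with -0.18 (95% interval -0.40 to 0.05, edgeR adjusted p = 0.309) and -0.13 (95% interval -0.30 to 0.05, edgeR adjusted p = 0.266). On library totals alone the NSP2ox calls of SUNN (-0.31, adjusted p = 0.077) and CRA2 (-0.17, adjusted p = 0.215) and the NSP1ox calls of CRA2 (-0.30, adjusted p = 0.0613) and CRE1 (-0.21, adjusted p = 0.162) did not pass. The calls of CRE1 in NSP2ox and miRR-NSP2ox did.

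The NSP2 transgenes with and without resistance to miR171h were compared directly. All 3 receptors lay higher in every miRR-NSP2ox library than in every NSP2ox library, where 36.4% of all genes did not overlap. Only SUNN was called, with a log2 fold change of 0.25 (SE 0.0742, edgeR adjusted p = 0.0256), among 20.5% of all genes. Its call was lost without miRR-NSP2ox replicate 2 (0.26, adjusted p = 0.06) or 3 (0.22, adjusted p = 0.128), without NSP2ox replicate 3 (0.25, adjusted p = 0.0902), with all groups in one fit (0.26, adjusted p = 0.0588) and on library totals alone (0.20, adjusted p = 0.102). CRA2 (0.19, 95% interval 0.03 to 0.34, edgeR adjusted p = 0.0871) and CRE1 (0.09, 95% interval -0.05 to 0.24, edgeR adjusted p = 0.385) did not pass.

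**Figure D5:**
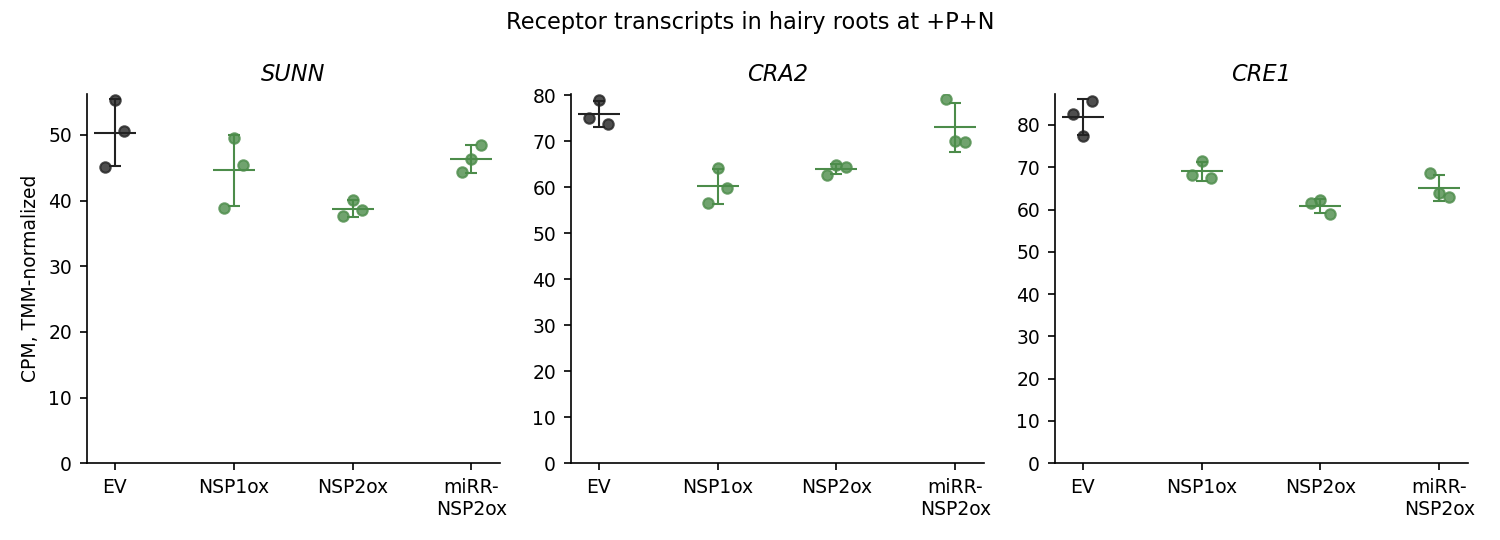
Levels of SUNN, CRA2 and CRE1 in hairy roots at +P+N, as TMM-normalized CPM on an axis from 0. Points are single libraries, dashes are means of 3 and bars are SD. CRE1 is lower than EV in every overexpression library, and the miRR-NSP2ox points lie above the NSP2ox points for each gene.

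Over the 24629 other genes tested, the gene whose log2 CPM most resembled a receptor over the 36 seedling libraries was Medtr4g016980 for CRA2 (Pearson r = 0.97), Medtr8g005820 for CRE1 (r = 0.929) and Medtr8g031270 for SUNN (r = 0.891). CRA2 had 732 genes with an r over 0.9, CRE1 had 15 and SUNN had 0. These values describe libraries that share nutrient regimes, genotypes and scaling. In the 12 hairy-root libraries the same pairs had r = -0.40 for CRA2, 0.68 for CRE1 and 0.71 for SUNN. The tables used here give no names for these genes.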

How the data were processed

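The deposited counts are raw whole numbers per gene, which the authors obtained with STAR (mapping to Mt4.0v1) and featureCounts. Tool versions, strand use and the treatment of reads that map to several genes are not given in the sources used here. No table used here pairs the identifiers with sequences or product names: the RefSeq gene table of the MtrunA17r5.0 assembly matched 0 of 50894 identifiers, so the 19 lists and symbols fixed for other pathway genes, tissue markers and NSP1 and NSP2 could not be used, and the labels were not checked against those genes. The receptors did not share identical counts with a neighbouring gene in any library.

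Genes were tested where 3 or more libraries of a table reached the CPM of 10 counts in its median library (0.492 in seedlings, 0.494 in hairy roots), which left 24630 and 24004 genes. Each comparison was fitted with edgeR 4.0.16 (TMM, quasi-likelihood test) in R 4.3.3 on the libraries of its groups, as 41 comparisons of each receptor and 123 tests in all. Benjamini-Hochberg adjustment ran over every gene tested, with a threshold of 0.05. SE is the size of the log2 fold change divided by the square root of F, and 95% intervals use the t distribution. log2 CPM for the variation by factor and for the genes most alike has a prior count of 2. Named genes are the 3 receptors and the gene most correlated with each over the seedling libraries. Alternatives were a filter in 1 library, no filter, RLE size factors, DESeq2 1.42.0, all groups in one fit, a block for the replicate number, each library or replicate number left out, a fold change over 1.5 and, added after the TMM factors were seen, library totals alone. The receptors, lists and tests were chosen with earlier results of these data known. The tests were tried on simulated data. Figures were drawn with matplotlib 3.10.9. The barley libraries were not used here.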

Additional observations from a re-analysis of the deposited data

Results flagged for a closer look

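A starvation response of a receptor differed between a mutant and A17 in 5 of the 18 interaction tests, each by edgeR's quasi-likelihood test on 12 libraries. Against A17, the log2 response to -P+N was more negative in nsp1 for CRE1 (-0.54, adjusted p = 0.000228) and CRA2 (-0.50, adjusted p = 0.00168), and more negative in nsp2 for CRA2 (-0.34, adjusted p = 0.0244) and CRE1 (-0.34, adjusted p = 0.0191). The response of SUNN to +P-N was less negative in nsp2 than in A17 (0.49, adjusted p = 0.0153). With a replicate number left out of every group in turn, both nsp1 calls held in all 3 fits. CRE1 in nsp2 was lost in all 3 (-0.40 to -0.28, adjusted p = 0.0602 to 0.172), CRA2 in nsp2 in 2 (highest adjusted p = 0.415) and SUNN in nsp2 in 2 (adjusted p = 0.151 and 0.115). All genes were called at rates of 31%, 15.4% and 2.04% in these 3 tests. The A17 libraries at +P+N enter all 5, and those at -P+N enter 4.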

How the results depend on the processing

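On library totals alone, without TMM, 5 values that were called on at least one scale turned direction: CRE1 at +P-N in A17 (0.20, adjusted p = 0.0222) and nsp2 (0.21, adjusted p = 0.00879), SUNN at +P-N in nsp2 (0.18, adjusted p = 0.0159), and the average nitrate effect on CRE1 (0.09, adjusted p = 0.0122) and SUNN (0.02, adjusted p = 0.614). That scale lost 12 calls and gained 3. Among the starvations of A17 against +P+N, the mutants against A17, the averages and the overexpression groups, the losses were CRE1 in A17 at -P-N (-0.03), CRA2 (-0.30) and CRE1 (-0.21) in NSP1ox, and CRA2 (-0.17) and SUNN (-0.31) in NSP2ox, and the average nsp2 effect on CRE1 was gained (-0.12). The others stand beside their results in the report. The same average was gained with a filter in 1 library (-0.10, adjusted p = 0.0486) and with no filter (-0.10, adjusted p = 0.0407), which lost the average nitrate effect on CRE1 (-0.06, adjusted p = 0.106, and -0.06, adjusted p = 0.116). Over the 123 tests, 103 stayed on their side of the threshold with no called value turned on library totals, 121 with RLE size factors or a filter in 1 library, and 120 with DESeq2 or no filter, as did 106 of 108 with all groups in one fit. Among these, values that were not called changed sign in 5 tests on library totals (for example CRE1 at +P-N in nsp1, 0.10, adjusted p = 0.129), 2 with no filter and 2 with all groups in one fit.

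With the replicate number as a block, 119 of 123 tests kept their call. The average nsp2 effect was gained for CRE1 (-0.09, adjusted p = 0.0493) and SUNN (0.10, adjusted p = 0.0381), as was the phosphate by nitrate interaction of SUNN in A17 (0.31, adjusted p = 0.0269), and CRE1 in NSP1ox was lost (-0.25, adjusted p = 0.0895). Replicate numbers did not pair the libraries: deviations of same-numbered libraries correlated at -0.09 to 0.17 (median 0.02), and in 3 of 27 comparisons every library correlated best with its own number.

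The phosphate by nitrate interaction of SUNN in A17 also passed with DESeq2 (0.34, adjusted p = 0.0386), no filter (0.30, adjusted p = 0.0408) and RLE size factors (0.34, adjusted p = 0.0415), and that of CRA2 in nsp2 with DESeq2 (0.29, adjusted p = 0.0352). Of 504 values with a library or replicate number left out, 449 kept their call, 51 lost it, 4 gained one and 0 turned a call. Of the 123 results, 27 changed in at least 1 of these fits, and 17 of them are given beside their values in the report. Log2 ranges for the other 10 were -0.28 to -0.18 for CRE1 in A17 at -P-N, -0.33 to -0.21 for SUNN in nsp1 at -P+N, -0.30 to -0.17 for CRA2 in nsp2 at -P+N and 0.19 to 0.31 for CRA2 in nsp2 at +P-N. In hairy roots they were -0.39 to -0.30 for CRA2 and -0.29 to -0.21 for CRE1 in NSP1ox, and -0.28 to -0.22 for CRA2 in NSP2ox. For the averages they were -0.10 to -0.04 for nitrate and CRE1, -0.19 to -0.09 for nitrate and SUNN, and -0.13 to -0.01 for nsp2 and CRE1. The cause of these changes was not tested, beyond the fewer libraries in each fit. A further fold change over 1.5 lowered the count of all genes called in 41 comparisons from 173 to 19025 down to 121 to 8646, by over 1.5 times in 39 of them. Of the 60 receptor calls, 9 have a fold change over 1.5, all between regimes within a genotype, 7 for CRA2, 2 for SUNN and 0 for CRE1. The share of all genes called stands beside each comparison in the report. None of the calls between a mutant and A17, between overexpression and EV, of an interaction or of an average does. Counting alone gave a CV of at most 3.75% per seedling library, under the median CV between replicates for each receptor.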
